A study of Mus musculus with 12 samples.

Results

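Expression of 9 genes used as markers of the oligodendrocyte lineage and of astrocytes was examined in mouse neural progenitor cells (NPCs). The genes were chosen by name and comprise Olig1, Olig2, Sox10, Pdgfra, Cspg4, Aqp4, S100b, Aldh1l1 and Cd44. They make up 9 of the 21154 genes that could be named on the array and are covered by 13 of its 55681 probes, 4 of them for Cd44, 2 for Aqp4 and 1 for each of the others. The study asked how lowering β-actin (Actb), or raising the transcription factor Srf (serum response factor) or its cofactor Mkl1, alters the identity of these cells. RNA from each sample was labelled with cyanine 3 and hybridized to a 1-colour Agilent array, and 12 arrays formed 6 groups of 2. All cells were NPCs differentiated in culture from pluripotent stem cells, held on gelatin with epidermal growth factor and basic fibroblast growth factor, given a retrovirus and, per the study's methods, selected with puromycin. The overexpression groups carried EGFP (a fluorescent protein, as control), Mkl1 or Srf. The knockdown groups carried a control hairpin directed at EGFP (shEGFP) or 1 of 2 hairpins that target Actb (shActb_1 and shActb_2). The methods describe more than 1 NPC line of the same origin, and the labels do not say which was on the arrays. The study describes the Actb array duplicates as technical, and the labels name no separate cultures, so p-values measure the spread between arrays only.

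Neural progenitors can give rise to neurons, astrocytes and oligodendrocytes. Olig1 and Olig2 are basic helix-loop-helix factors that specify the oligodendrocyte lineage, and Sox10 is a factor that later drives myelin genes. Oligodendrocyte precursors carry Pdgfra, the receptor for PDGF-A that keeps them dividing, and Cspg4 (NG2), a chondroitin sulphate proteoglycan. Aldh1l1, a folate enzyme, Aqp4, the water channel of astrocyte endfeet, and S100b, a calcium-binding protein, are used to recognize astrocytes, and Cd44, the hyaluronan receptor, marks astrocyte-restricted precursors. Most of these genes are also used by other cells, Pdgfra by fibroblasts, Cspg4 by pericytes, Sox10 by neural crest cells and Cd44 by many mesenchymal and blood cells.

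Between 59.28% and 72.48% of probes per array were well above background, and duplicate arrays disagreed by over 2-fold at 0.499% to 2.74% of detected probes, most often in EGFP. The targeted genes were examined as a check of the labels. The log2 difference of Actb from shEGFP was -0.53 (SE 0.05, adjusted p = 0.00128, limma) in shActb_1 and -0.65 (SE 0.05, adjusted p = 0.000197) in shActb_2. Mkl1, listed under its newer symbol Mrtfa, read 0.17 higher in Mkl1 than in EGFP on the log2 scale (adjusted p = 0.312). Both Srf probes went against their label. They read 1.20 and 1.32 (brighter probe) on the arrays labelled Srf and 2.45 and 2.87 on the EGFP arrays, a log2 difference of -1.403 (adjusted p = 0.000266), and -2.46 at the other probe (adjusted p = 2.54e-06). On the arrays labelled Mkl1 the brighter Srf probe read higher than in EGFP, by a log2 difference of 1.18 (adjusted p = 0.00121), and Srf against Mkl1 gave -2.58 (adjusted p = 1.6e-05). Whether these probes can detect the transgenes was not determined, and every direction given for the arrays labelled Srf or Mkl1 rests on the label. EGFP, Mkl1 and Srf lay on one slide, shEGFP and shActb_1 on another, and shActb_2 alone on the third, so slide and hairpin cannot be told apart for shActb_2.

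Of the 9 genes 6 could be tested, and 4 passed the adjusted p at their brightest probe in at least 1 comparison with a control. Of these 1 changed by over 2-fold. Depending on the comparison, 9.41% to 40.3% of all tested probes passed the adjusted p and 1.61% to 6.31% changed. Levels are log2 signals relative to the 75th percentile of the array, so that 0 stands for a probe at that percentile. A gene was called changed at an adjusted p under 0.05 together with a difference over 2-fold, and was counted by its brightest probe. Cd44 rose in Mkl1, just past 2-fold, and was the only one of the 9 genes changed against a control. Aldh1l1 read higher on the arrays labelled Srf and lower with both Actb hairpins, each by under 2-fold. Pdgfra read lower in Mkl1 and with both hairpins, and Aqp4 read lower in shActb_2, again by under 2-fold. Olig1, Olig2 and S100b were not measurable in most samples, and Sox10 and Cspg4 did not pass the test in any comparison.

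**Figure D1:**
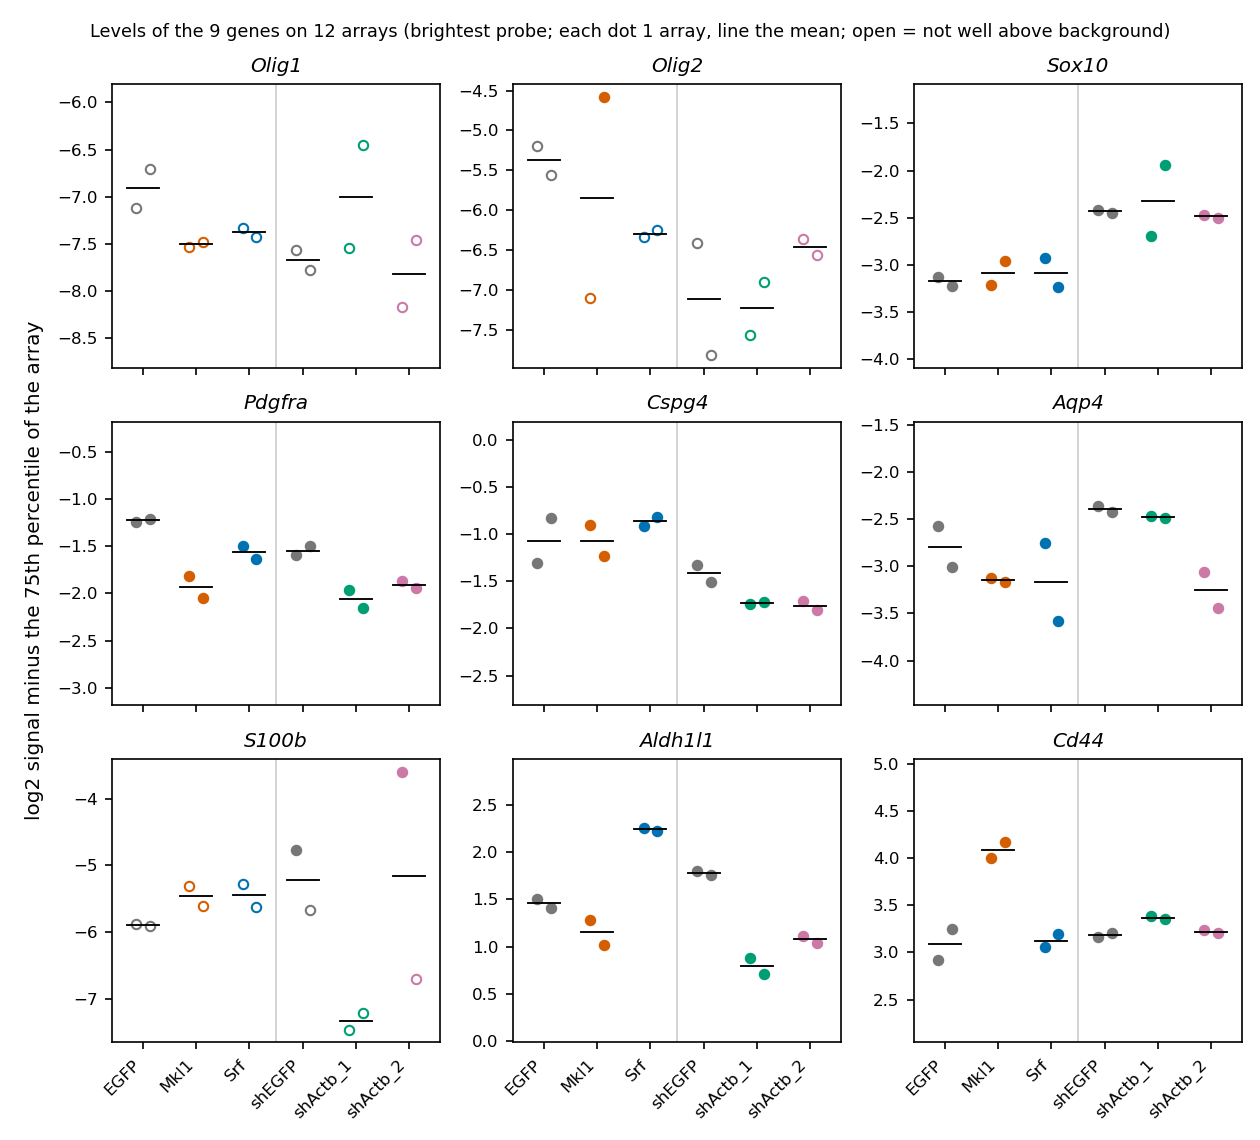
Levels of the 9 genes at their brightest probe, with 1 panel per gene, the 6 groups on the horizontal axis and the log2 signal minus the 75th percentile of the array on the vertical axis, which spans a different range in each panel. Each dot is 1 array, the line is the mean of 2 arrays and an open dot was not well above background, as all 12 dots of Olig1, 11 of Olig2 and 10 of S100b were.

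Of the lineage-specifying factors, Olig1 and Olig2 were close to the limit of the arrays. Olig1 was well above background on 0 of 12 arrays, with levels from -8.17 to -6.45. Olig2 was well above background on 1 of 12 arrays, the second Mkl1 array at -4.59, whereas the first Mkl1 array read -7.10. Both genes were therefore not tested under the filter used here, and their levels on arrays where they were not above background give only an upper bound. With no filter on dim probes neither passed in any comparison (adjusted p from 0.2 to 0.986), and Olig2, tested without Mkl1 replicate 1, did not pass either (adjusted p = 0.398 against EGFP and 0.0891 for Srf against Mkl1). Sox10 was dim but well above background on 12 of 12 arrays, at -3.12 and -3.22 in EGFP, -3.21 and -2.96 in Mkl1 and -2.93 and -3.23 on the arrays labelled Srf. In the knockdown experiment it read -2.42 and -2.45 in shEGFP, -2.70 and -1.94 in shActb_1 and -2.47 and -2.50 in shActb_2. The Sox10 arrays of Mkl1, Srf and shActb_1 overlapped their controls, and its log2 differences from control lay between -0.05 (shActb_2) and 0.11 (shActb_1), with SE of 0.23 in each and adjusted p from 0.792 to 0.87.

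The labels of the marker groups were checked against their lists, and the result was mixed. Of 22 further astrocyte genes 15 were above background on all 12 arrays and 2 on none, and of 15 myelin and mature oligodendrocyte genes 9 and 4. Aldoc, Clu, Glul and Gja1 of the first list and Mbp and Cnp of the second were among those above it on all 12. Olig1, Olig2, S100b and Slc1a2, the main glutamate transporter of mature astrocytes, were each above background on at most 2 of 12 arrays, and Gfap, the intermediate filament of astrocytes, was above it on 11 of 12 but dim, between -5.21 and -3.94. The genes are accordingly called by name, and no cell type is assigned. The cells did carry the progenitor genes their label names, with 9 of 10 progenitor markers above background on 12 arrays and Nes (nestin) between 3.71 and 5.14. In such mixed RNA a lower level from fewer cells of a type and one from less RNA per cell cannot be told apart.

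The receptor Pdgfra read below its control in each of the 4 treatments. Its levels were -1.25 and -1.21 in EGFP, -1.82 and -2.05 in Mkl1 and -1.495 and -1.63 on the arrays labelled Srf. They were -1.60 and -1.498 in shEGFP, -1.96 and -2.16 in shActb_1 and -1.87 and -1.95 in shActb_2. The treated arrays of all 4 groups lay below both arrays of their control. With 2 arrays a group such a separation says little, and its share over all probes was not counted. The log2 difference from control was -0.71 in Mkl1 (SE 0.10, adjusted p = 0.00398), -0.51 in shActb_1 (SE 0.10, adjusted p = 0.0233) and -0.36 in shActb_2 (SE 0.10, adjusted p = 0.0272). For Srf against EGFP it was -0.34 (SE 0.10, adjusted p = 0.05), which did not pass, although it passed under 5 of 13 alternatives (adjusted p from 0.033 to 0.247 over all 13). The 2 hairpins share shEGFP and Mkl1 and Srf share EGFP, so these are not 4 independent comparisons. The call for either hairpin held under 7 of 13 alternatives and was lost with any 1 of the 4 arrays left out. Over the 13 the log2 difference ran from -0.61 to -0.41 in shActb_1 and from -0.41 to -0.22 in shActb_2. Restricting the fit to the compared arrays ended the call for Mkl1 (adjusted p = 0.0973).

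Fibroblasts and pericytes also express PDGF receptors, and their markers were measured in the same comparisons. Of 8 such markers 5 were above background on all 12 arrays, and none was below it on every array. Their summed level was 6.71 to 6.74 in EGFP, 6.09 to 6.39 in Mkl1 and 5.97 to 6.01 on the arrays labelled Srf. In the knockdown experiment it was 6.45 to 6.59 in shEGFP, 6.14 to 6.26 in shActb_1 and 5.83 to 5.88 in shActb_2. The summed level was lower than the control in every treated group. On the arrays labelled Srf the single markers ran both ways, with 2 higher and 2 lower of 6 at the adjusted p (25.5% of all probes passed) and a median log2 difference of 0.32. There Col1a2, a bright collagen gene, fell (-1.10), while Dcn was higher by 0.85 (adjusted p = 0.000111) and Pdgfrb differed by 0.21 (adjusted p = 0.308). In Mkl1 and with the hairpins 3, 2 and 3 of 5 were lower at the adjusted p and 0 were higher, beside 20.8%, 9.41% and 40.3% of all probes. The part of these markers in the Pdgfra values was not tested. Pdgfrb, the sister receptor found on pericytes, fell with log2 differences of -1.69 in Mkl1 (adjusted p = 0.000479), -1.87 in shActb_1 (adjusted p = 0.000379) and -1.75 in shActb_2 (adjusted p = 0.000188). Dcn (decorin), a matrix proteoglycan of fibroblasts, fell in the same 3 comparisons (-1.79, -1.96 and -1.55).

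Cspg4, the other precursor surface protein, gave no call. It read -1.31 and -0.83 in EGFP, -0.90 and -1.23 in Mkl1 and -0.91 and -0.82 on the arrays labelled Srf, and these groups overlapped. In the knockdown experiment it read -1.33 and -1.502 in shEGFP, -1.74 and -1.72 in shActb_1 and -1.71 and -1.81 in shActb_2. Both hairpin groups lay below shEGFP, with log2 differences of -0.31 (SE 0.17, adjusted p = 0.335) and -0.34 (SE 0.17, adjusted p = 0.141), which did not pass.

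Aldh1l1 and Cd44 were the members that changed in at least one comparison, and the 250 bases before their start are shown because Srf acts on promoters through the CArG box. Sequences are from RefSeq (GRCm38.p6), 5′ to 3′ on the strand of the gene, with every GGAA (the core bound by Ets factors, partners of Srf) and every GGGCGG (GC box) in capitals, on either strand.
Aldh1l1, chr6:90550543-90550792, plus strand: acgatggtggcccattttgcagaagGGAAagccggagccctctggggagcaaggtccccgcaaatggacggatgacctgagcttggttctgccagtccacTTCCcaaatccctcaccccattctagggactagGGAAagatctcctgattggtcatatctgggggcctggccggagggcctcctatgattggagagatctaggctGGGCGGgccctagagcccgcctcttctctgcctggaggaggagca
Cd44, chr2:102901666-102901915, minus strand: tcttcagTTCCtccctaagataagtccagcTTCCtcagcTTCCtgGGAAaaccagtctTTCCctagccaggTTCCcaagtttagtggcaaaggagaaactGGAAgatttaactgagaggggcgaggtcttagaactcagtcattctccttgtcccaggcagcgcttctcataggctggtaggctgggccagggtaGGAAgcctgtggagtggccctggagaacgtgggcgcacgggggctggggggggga
The Aldh1l1 stretch held 3 Ets cores and 1 GC box, and the Cd44 stretch held 8 Ets cores and 0 GC boxes. An Ets core was present in 93.4% of the 32851 promoter stretches of this length and a GC box in 32.7%. Neither stretch held a CArG box, which 1.47% of all stretches held. A match is a description and not a bound site, and a missing match concerns these 250 bases only.

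Aldh1l1 read higher than its control on the arrays labelled Srf and lower with each Actb hairpin. It read 1.51 and 1.41 in EGFP, 1.29 and 1.02 in Mkl1 and 2.26 and 2.23 on the arrays labelled Srf. It read 1.80 and 1.76 in shEGFP, 0.88 and 0.71 in shActb_1 and 1.11 and 1.04 in shActb_2. The means were highest on the arrays labelled Srf and lowest with the 2 hairpins, and the second Mkl1 array lay below both shActb_2 arrays. The arrays labelled Srf exceeded EGFP in Aldh1l1 by 0.78, as log2 (SE 0.10, adjusted p = 0.00136, 1.72-fold). Its log2 difference was -0.98 in shActb_1 (SE 0.10, adjusted p = 0.00152, 1.98-fold lower) and -0.70 in shActb_2 (SE 0.10, adjusted p = 0.00169, 1.63-fold lower). In Mkl1 the difference of -0.31 did not pass (SE 0.10, adjusted p = 0.0694), although it passed under 5 of 13 alternatives (adjusted p from 0.0285 to 0.351 over all 13). The Srf and hairpin values passed the adjusted p under each of the 13 alternatives run. For shActb_1 the value lay just under 2-fold, and it passed 2-fold under quantile normalization (-1.04) and without shEGFP replicate 2 (-1.004) or shActb_1 replicate 1 (-1.07).

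Set directly against each other, the arrays labelled Srf exceeded Mkl1 in Aldh1l1 by 1.09, as log2 (SE 0.10, adjusted p = 0.00027, 2.13-fold), a change under the rule. Without Mkl1 replicate 2 the difference was 0.96, under 2-fold. The 2 hairpins differed by 0.28 (SE 0.10, adjusted p = 0.0689), which did not pass.

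Aqp4 was dim and its 2 probes did not give the same picture. The brighter probe read -2.58 and -3.01 in EGFP, -3.12 and -3.16 in Mkl1 and -2.76 and -3.58 on the arrays labelled Srf, with no call in either comparison. It read -2.36 and -2.42 in shEGFP, -2.46 and -2.49 in shActb_1 and -3.06 and -3.45 in shActb_2. The shActb_2 arrays were lower than all other knockdown arrays, with a log2 difference from shEGFP of -0.86 (SE 0.26, adjusted p = 0.0338). That call was lost without shEGFP replicate 1 or 2 or shActb_2 replicate 2 (adjusted p = 0.133, 0.103 and 0.191) and with no filter on dim probes (0.0631). At the dimmer Aqp4 probe shEGFP replicate 1 read -0.89 and replicate 2 read -3.33, while the other 10 arrays lay between -4.38 and -3.30. Its difference for shActb_2 was -1.42 (SE 0.65, adjusted p = 0.122), -0.20 without shEGFP replicate 1 and -2.64 without shEGFP replicate 2 (adjusted p = 0.00183), so the value depended on which control array was kept.

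S100b was well above background on 2 of 12 arrays, shEGFP replicate 1 at -4.77 and shActb_2 replicate 1 at -3.60. The other arrays of those groups read -5.67 and -6.70. No group had it above background on both arrays, so it was not tested. The share of all probes above background was 72.48% on shActb_2 replicate 1 and 59.28% on replicate 2, the highest and the lowest of the 12 arrays.

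Cd44 was the one member with a change against a control. At its brightest probe (A_55_P2064043) it read 2.92 and 3.25 in EGFP, 3.999 and 4.17 in Mkl1 and 3.05 and 3.196 on the arrays labelled Srf. In the knockdown experiment it read 3.16 and 3.201 in shEGFP, 3.38 and 3.36 in shActb_1 and 3.23 and 3.21 in shActb_2. Both Mkl1 arrays lay above all 10 others. Cd44 rose in Mkl1 by a log2 difference of 1.001 (SE 0.11, adjusted p = 0.0015), which exceeded the threshold of 2-fold by little. The call on size was lost under quantile normalization (0.91) and without EGFP replicate 1 (0.84) or Mkl1 replicate 2 (0.91), and the call on adjusted p was lost when only the compared arrays were fitted (adjusted p = 0.0866). The difference of Srf from EGFP was 0.04 (SE 0.11, adjusted p = 0.815), and the direct difference of Srf from Mkl1 was -0.96 (SE 0.11, adjusted p = 0.00085).

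All 4 Cd44 probes read higher in Mkl1 than in EGFP, the 2 dim ones without passing, but they disagreed on the second hairpin. The second probe (A_55_P2166501) read 2.54 and 2.52 in EGFP, and 3.38 on both Mkl1 arrays, a log2 difference of 0.84 (SE 0.06, adjusted p = 0.000221). At the 2 dim probes (A_55_P2166488 and A_55_P2166486) Mkl1 also read above EGFP, by 0.40 (adjusted p = 0.155) and 0.55 (adjusted p = 0.301), which did not pass. In shActb_2 the second Cd44 probe read 3.06 on both arrays against 2.32 and 2.29 in shEGFP, a log2 difference of 0.76 (SE 0.06, adjusted p = 0.000169). The brightest probe differed there by 0.04 (SE 0.11, adjusted p = 0.797). A rise of Cd44 in shActb_2 was therefore seen at 1 of its 2 bright probes. Which Cd44 transcripts each probe detects was not determined.

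**Figure D2:**
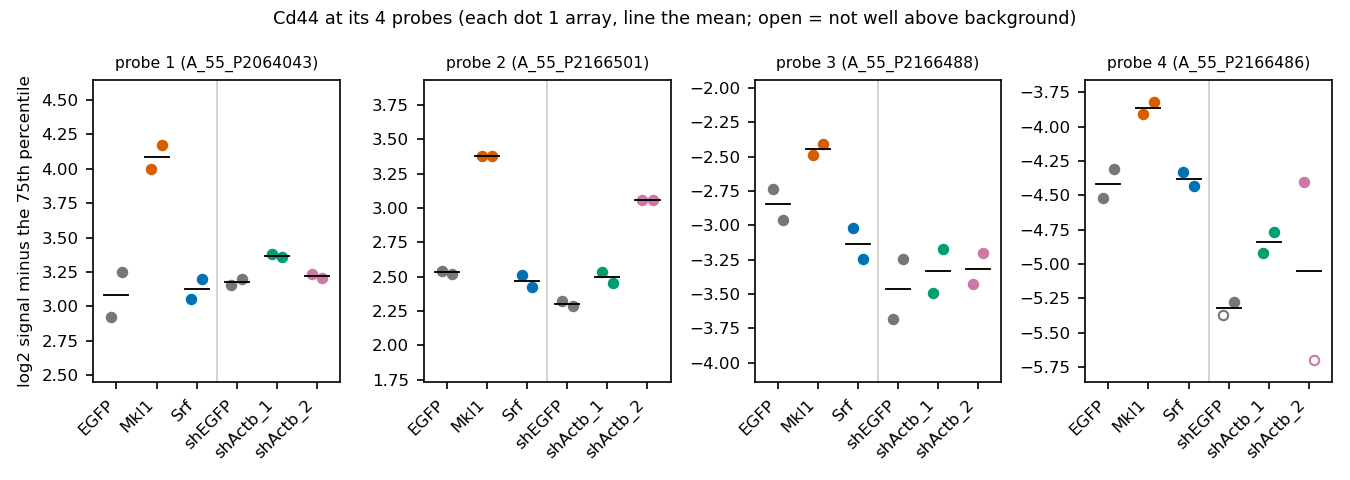
Cd44 at its 4 probes from brightest to dimmest, with the 6 groups on the horizontal axis and the log2 signal minus the 75th percentile of the array on the vertical axis, which covers the same width in each panel. Each dot is 1 array, the line is the mean of 2 arrays and an open dot was not well above background. Mkl1 lies above EGFP at every probe, and shActb_2 stands apart from shEGFP at probe 2, at 3.06 on both arrays.

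The genes whose pattern over the 12 arrays was most like that of Cd44 were Ackr3, an atypical chemokine receptor, and Plek2, a pleckstrin family protein. Likeness was the root mean square difference of log2 levels after each experiment's mean was removed, 0.079 for Ackr3 and 0.114 for Plek2 against a median of 0.401 over 16684 genes. Ackr3 differed from EGFP by 0.83 in Mkl1 and by -0.04 on the arrays labelled Srf, and Plek2 by 0.88 and 0.20. In shActb_1 and shActb_2 Ackr3 differed from shEGFP by 0.11 and 0.12, and Plek2 by 0.41 and 0.14. Both genes were picked for their likeness on these same arrays, so the likeness is a description only.

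The calls of the members were set beside those of the whole array. Of the 6 members that could be tested, 0 changed on the arrays labelled Srf and 1 in Mkl1, where 5.54% and 2.78% of all tested probes changed. With the hairpins 0 of 6 changed in shActb_1 and 0 of 6 in shActb_2, where 1.61% and 6.31% of all probes changed. At an adjusted p under 0.05 alone, 1 of 6 passed for Srf, 2 for Mkl1, 2 for shActb_1 and 3 for shActb_2. The shares of all probes were 25.5%, 20.8%, 9.41% and 40.3%. With 6 genes such counts say little about the members as a group. Their median log2 difference was 0.07 for Srf, -0.15 for Mkl1, -0.20 for shActb_1 and -0.35 for shActb_2, where the median of all tested probes lay between -0.04 and 0.01. Between Srf and Mkl1, 1 of 6 changed and 3 passed the adjusted p (all probes 5% and 25.6%), and between the hairpins 0 changed and 0 passed (5.03% and 32.1%).

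**Figure D3:**
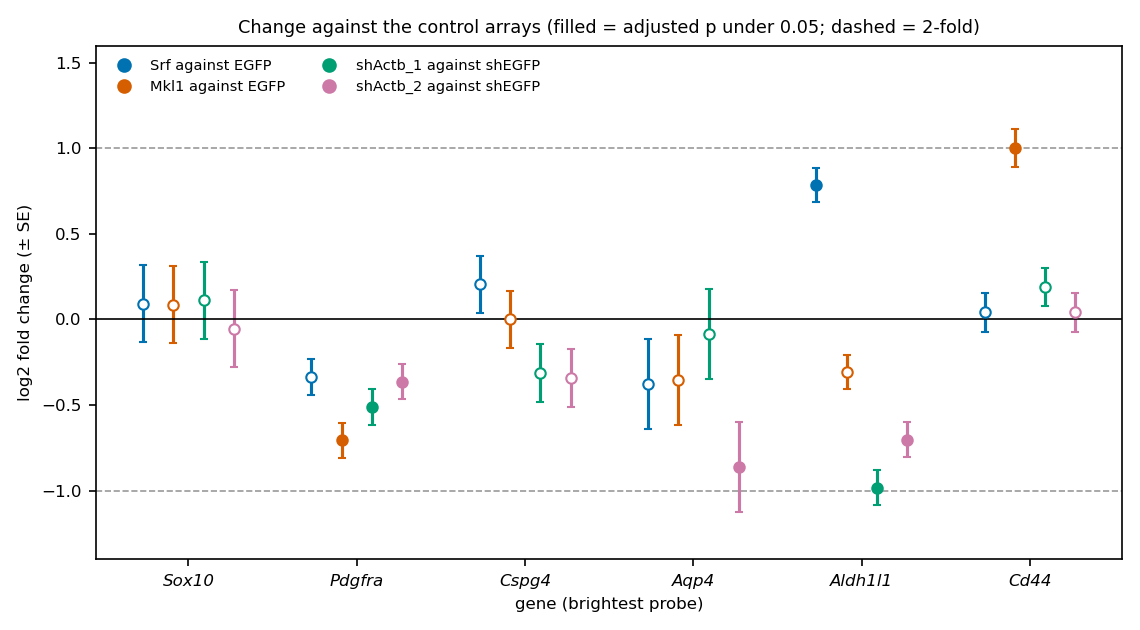
Log2 fold change (vertical axis) of the 6 members that could be tested, by gene on the horizontal axis, for Srf and Mkl1 against EGFP and for each Actb hairpin against shEGFP. Bars are the SE of the fit over 12 arrays, filled points passed an adjusted p of 0.05 and dashed lines mark 2-fold. Aldh1l1 is above 0 for Srf and below it for both hairpins, Pdgfra is below 0 throughout, and Cd44 in Mkl1 sits on the 2-fold line.

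Other astrocyte genes were examined as a list of 22, of which 17 or 18 could be tested. On the arrays labelled Srf 3 rose, 1 fell and 13 were not called, where 5.54% of all probes changed, with 6 higher and 3 lower at the adjusted p alone, which 25.5% of all probes passed. Sparcl1, a secreted matrix protein, rose with a log2 difference of 2.05 (SE 0.10, adjusted p = 1.96e-05). Clu (clusterin) rose by 1.101 and Slc4a4, a bicarbonate transporter, by 1.43, while Aldoc, a glycolytic enzyme of astrocytes, differed by -1.16 (adjusted p = 0.000316). The list held calls in both directions, and its median log2 difference was 0.25 against -0.04 over all probes.

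In Mkl1 2 astrocyte genes rose and 3 fell of 18, where 2.78% of all probes changed. Acsbg1, an acyl-CoA synthetase, rose by 1.55 and Hopx, a homeodomain protein of radial glia, by 1.12. Slc1a3, the glutamate transporter of radial glia and astrocytes, fell, as did Sparcl1 and Clu, with log2 differences of -1.37, -1.41 and -1.01. The same list held 1 rise and 3 falls in shActb_1, and 1 rise and 2 falls in shActb_2, beside 1.61% and 6.31% of all probes. Acsbg1 rose with both hairpins (by 1.20 and 1.02), and Slc1a3 fell with both (log2 differences of -1.30 and -1.11). The Acsbg1 call in shActb_1 was lost without any 1 of the 4 arrays (adjusted p from 0.0727 to 0.0887) and in shActb_2 without shActb_2 replicate 2 (0.0544). Sparcl1 and Atp1b2, a sodium pump subunit, fell in shActb_1 (-1.02 and -1.34), and Agt (angiotensinogen) fell in shActb_2 (-1.01). At the adjusted p alone 3 were higher and 7 lower in Mkl1, 2 and 5 in shActb_1, and 4 and 9 in shActb_2, beside 20.8%, 9.41% and 40.3% of all probes. The median log2 difference of the list was -0.18 in Mkl1, -0.14 in shActb_1 and -0.15 in shActb_2.

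The summed level of the 22 astrocyte genes was 7.36 to 7.49 in EGFP, 7.471 on both arrays labelled Srf and 6.77 to 6.91 in Mkl1. It was 7.003 and 7.004 in shEGFP, 6.44 to 6.51 in shActb_1 and 7.03 to 7.12 in shActb_2. Only Mkl1 and shActb_1 lay below their control by this measure, which the brightest genes of the list dominate.

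Srf and Mkl1 were also compared directly over this list. Of 18 genes 5 were higher on the arrays labelled Srf and 1 was lower, where 5% of all probes changed. Sparcl1 differed by a log2 value of 3.46 (SE 0.10, adjusted p = 2.1e-06, 11.0-fold), Clu by 2.11, Atp1b2 by 1.62 and Apoe, the lipid carrier of astrocytes, by 1.34. Hopx was the lower gene, with a difference of -1.58 (adjusted p = 9.63e-06). Aldh1l1 was higher on the same arrays, as given above. Between the hairpins Id3, a BMP-responsive inhibitor of differentiation, was higher in shActb_2 by 1.17 and Agt differed by -1.04.

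Further genes of the oligodendrocyte lineage were examined in a precursor and a myelin list. Of 16 further precursor genes 7 were above background on all 12 arrays, while Nkx6-2, Sox8 and Gpr17 were above it on none. Vcan (versican), a matrix proteoglycan, fell in shActb_2 with a log2 difference of -1.05 (adjusted p = 0.0026), the only call among 11 tested with that hairpin, where 5 were lower and 0 higher at the adjusted p alone (40.3% of all probes passed). Zfp536, a zinc finger factor, was above background on 6 of 12 arrays, and in the overexpression experiment only on the arrays labelled Srf, at least 2.14-fold above EGFP (adjusted p = 0.019), with measured means of -4.48 and -6.32, a call that was lost without Srf replicate 1 (adjusted p = 0.107). It entered that comparison only through the arrays labelled Srf, where it is high, so the filter itself favoured a difference. A dimmer Zfp536 probe was above background on 0 of 12 arrays, with means of -5.42 on the arrays labelled Srf and -5.62 in EGFP. No precursor gene changed in Mkl1 or shActb_1, out of 10 and 11 tested, where 2.78% and 1.61% of all probes changed. At the adjusted p alone 3 were higher and 1 lower of 11 for Srf, 0 and 1 for Mkl1 and 0 and 0 for shActb_1, beside 25.5%, 20.8% and 9.41% of all probes. Between the hairpins Pcdh15, a protocadherin, was lower in shActb_2 with a difference of -1.03 (adjusted p = 0.00279), and a dimmer probe gave -0.996 (adjusted p = 0.0907), which did not pass.

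Of 15 myelin and mature oligodendrocyte genes, Myrf, the master regulator of myelin genes, was above background on no array, nor were Opalin, Fa2h and Mal. Mbp (myelin basic protein) was above it on all 12, from 1.62 to 2.04 at its brightest probe. At its dimmer probes it read only -3.06 to -2.12 and -4.34 to -3.73. On the arrays labelled Srf 2 of 9 tested genes rose, where 5.54% of all probes changed. Trf, the iron carrier transferrin, rose by a log2 difference of 2.54 (SE 0.12, adjusted p = 1.9e-05) and Ugt8a, which makes the myelin lipid galactosylceramide, by 1.07 (SE 0.17, adjusted p = 0.00344). Trf and Ugt8a were also higher there than in Mkl1, by 2.52 and 1.84. No myelin gene changed in Mkl1 or with either hairpin, out of 10, 11 and 11 tested, where 2.78%, 1.61% and 6.31% of all probes changed. With so few genes these counts say little about the list. At the adjusted p alone 3 were higher and 1 lower for Srf, 1 and 3 for Mkl1, 0 and 0 for shActb_1, and 1 and 3 for shActb_2, beside 25.5%, 20.8%, 9.41% and 40.3% of all probes.

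**Figure D4:**
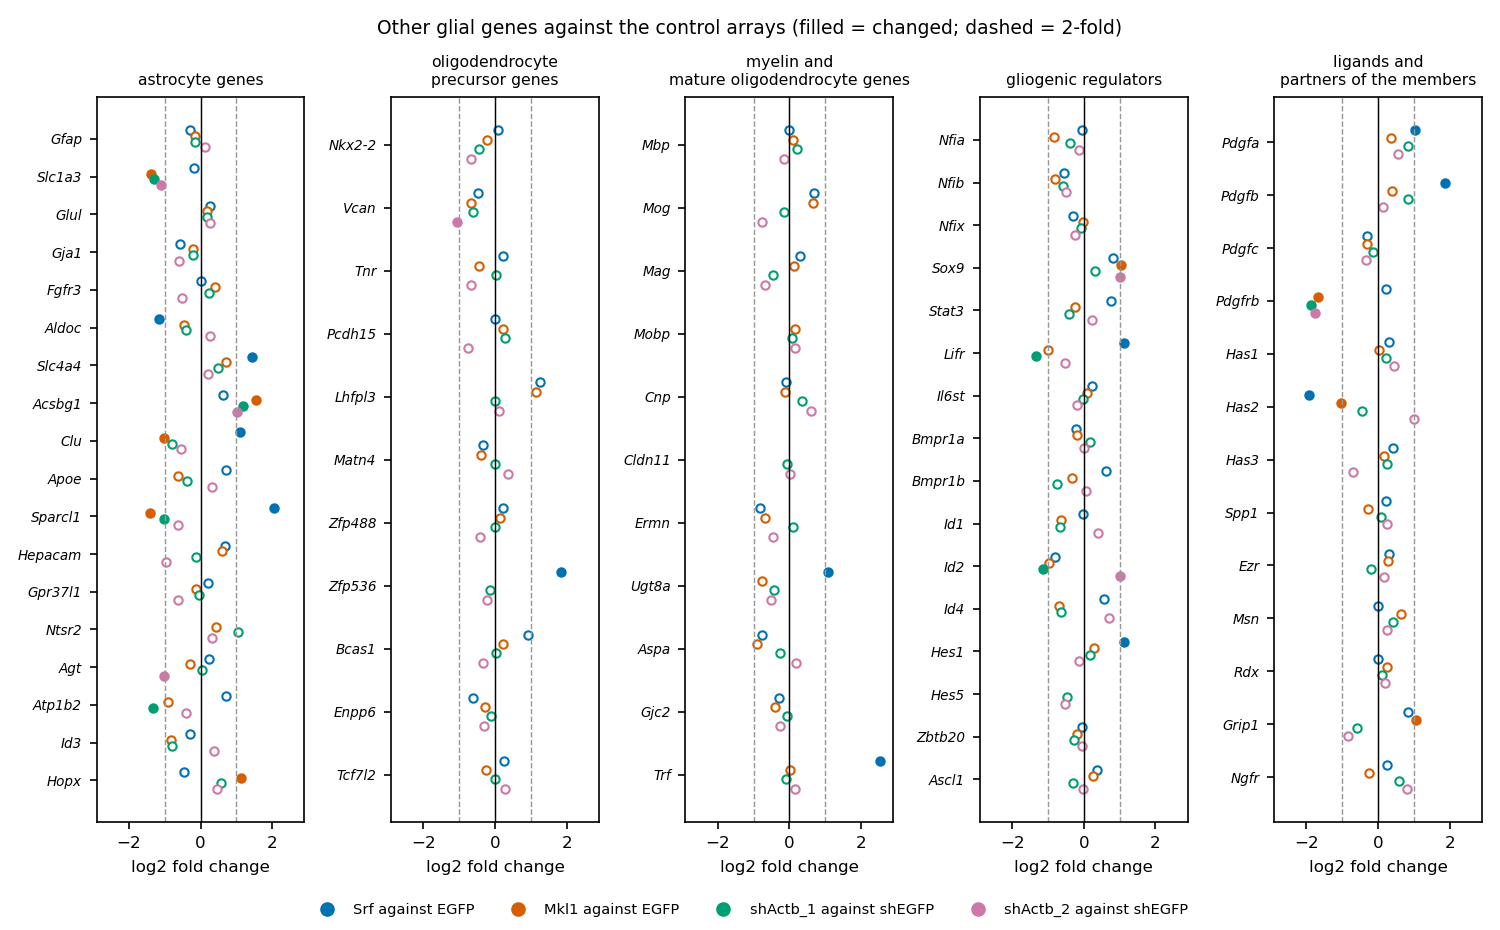
Log2 fold change against the control arrays (horizontal axis) of the genes of 5 further lists that could be tested, 1 row per gene at its brightest probe and 1 colour per comparison. Filled points changed (adjusted p under 0.05 and over 2-fold) and dashed lines mark 2-fold. Slc1a3 is lower and Acsbg1 higher in Mkl1 and both hairpins, and Trf is the furthest to the right, at 2.54 on the arrays labelled Srf.

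The ligands and partners of the members were examined next. Pdgfa, the ligand of Pdgfra, rose on the arrays labelled Srf, with a log2 difference of 1.04 (SE 0.07, adjusted p = 9.72e-05) and Pdgfb by 1.87 (SE 0.17, adjusted p = 0.000304), although a dimmer Pdgfb probe gave 0.49 (adjusted p = 0.337). Has2, which makes the hyaluronan that Cd44 binds, fell there (-1.92, adjusted p = 8.7e-05) and in Mkl1 (-1.03, adjusted p = 0.00237). Grip1, a scaffold that binds Cspg4, rose in Mkl1 by 1.07 (adjusted p = 0.0377), a call lost without EGFP replicate 1 or 2 or Mkl1 replicate 2 (adjusted p up to 0.213). The other 2 Grip1 probes gave 0.016 (adjusted p = 0.933) and -0.52 (adjusted p = 0.248), so the call rests on 1 of 3 probes. Of 13 tested genes 3 changed on the arrays labelled Srf, 3 in Mkl1 and 1 with each hairpin, the latter being Pdgfrb in both, beside 5.54%, 2.78%, 1.61% and 6.31% of all probes. Has2 was higher in shActb_2 than in shActb_1 by 1.44 (adjusted p = 0.000527). Ezr, Msn and Rdx, which tie Cd44 to actin, reached 2-fold in none of the comparisons. Msn (moesin) was higher by 0.64 in Mkl1 (adjusted p = 0.00123), by 0.43 in shActb_1 (adjusted p = 0.00989) and by 0.25 in shActb_2 (adjusted p = 0.0234).

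Among regulators of glial fate, the calls were rises on the arrays labelled Srf, in Mkl1 and in shActb_2, and falls in shActb_1. Lifr, a receptor of the gp130 family through which astrocyte differentiation is driven, rose on the arrays labelled Srf by 1.12 (SE 0.08, adjusted p = 0.000128) and fell in shActb_1 (-1.34, SE 0.09, adjusted p = 0.000212). Id2, an inhibitor of basic helix-loop-helix factors, fell in shActb_1 (-1.15) and rose in shActb_2 (1.001), a difference between the hairpins of 2.15 (SE 0.21, adjusted p = 0.000678). Its fall was not called without shEGFP replicate 1 or 2 or shActb_1 replicate 2 (adjusted p up to 0.11). Id1 and Id4 were also higher in shActb_2 than in shActb_1, by 1.07 and 1.34. Sox9, a factor of the switch to gliogenesis, rose in Mkl1 by 1.04 and in shActb_2 by 1.02. Hes1, a Notch target, rose on the arrays labelled Srf by 1.11. Of 15 or 16 tested regulators, 2 changed for Srf, 1 for Mkl1 and 2 for each hairpin, beside 5.54%, 2.78%, 1.61% and 6.31% of all probes. At the adjusted p alone 6 were higher and 3 lower for Srf, and 1 and 6 for Mkl1. With the hairpins the counts were 0 and 7 in shActb_1 and 4 and 2 in shActb_2. Of all probes 25.5%, 20.8%, 9.41% and 40.3% passed. The median log2 difference of the list was 0.23, -0.23, -0.39 and -0.03 in the same order.

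Markers of other cells were measured beside these results. Of 9 or 10 tested progenitor markers 1 changed for Srf, 1 for Mkl1, 2 for shActb_1 and 0 for shActb_2, beside the same shares of all probes, with Sox2 lower on the arrays labelled Srf and in shActb_1 (log2 differences of -1.05 and -1.01), Fabp7 lower in shActb_1 (-1.27, adjusted p up to 0.0559 with 1 array left out) and Nes higher in Mkl1 (1.16). Cd44 is also carried by microglia, and of 8 microglia markers 5 were above background on all 12 arrays. Their summed level was 3.44 to 3.54 in EGFP and 3.45 to 3.62 in Mkl1, where Cd44 rose, and 3.94 to 4.00 on the arrays labelled Srf. In the knockdown experiment it was 3.62 to 3.83 in shEGFP, 3.52 to 3.59 in shActb_1 and 3.44 to 3.55 in shActb_2. Of the endothelial markers Cdh5, Tek and Emcn, and of the neural crest and Schwann cell markers Foxd3 and Tfap2b, were above background on no array. None of the 3 endothelial genes and of the 4 or 5 crest genes that could be tested changed in any of the 4 comparisons with a control. Sox10 is a crest gene too, and the summed crest level was 3.75 to 3.84 in EGFP, 3.60 to 3.63 in Mkl1 and 3.42 to 3.45 on the arrays labelled Srf. It was 3.75 to 3.79 in shEGFP, 3.56 on both shActb_1 arrays and 3.68 to 3.74 in shActb_2. The part of these other cells in the values above was not tested.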

How the data were processed

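Expression was measured on 12 one-colour Agilent arrays, 2 in each of 6 groups taken from the sample titles. Per the file headers, the scanner images were read with Feature Extraction 11.5.1.1, and the files the authors deposited give a background-subtracted signal intensity per spot with no normalization between arrays. They also deposited a log2 table, which differed from the values below by a constant of at most 0.0076 per array. The array format named in the labels is not that of the files, which hold 62976 features and fit the methods.

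Control and outlier spots were dropped, spots of a probe were averaged, and each array's 75th percentile was subtracted from the log2 intensity. Accessions were matched to RefSeq names (GRCm38.p6), which named 50.3% of 55681 probes. The arrays were designed on another build, so probe positions are not given. The model (limma 3.58.1, R 4.3.3) took the 12 arrays at once, with 1 mean per group. A comparison tested probes well above background on both arrays of at least 1 of its groups, two-sided, with Benjamini-Hochberg adjustment over all of them. The fit was tested on simulated data. The number of arrays limits the precision.

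The members and lists were chosen with earlier results of these data known, and 1 gene of the lists is not reported here. From the other lists, genes changed against a control at their brightest probe were named, at most 4 per direction and comparison. Some of those changed between 2 treatments were named too, as were the 2 genes nearest to a changed member. Marker genes given by level only were chosen after their values were seen. Alternatives were normexp (offset 50, from spot and local background medians), quantile normalization, the deposited table, other filters on dim probes, the compared arrays only, a variance trend with robust estimation, the replicate number or slide as a block, other call rules, and each array left out.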

Additional observations from a re-analysis of the deposited data

Results flagged for a closer look

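The effects of the 2 Actb hairpins differed at the second Cd44 probe. shActb_2 exceeded shActb_1 there by a log2 difference of 0.56 (SE 0.06, adjusted p = 0.00075, limma), with 3.06 on both shActb_2 arrays against 2.54 and 2.46 in shActb_1, and the adjusted p was under 0.05 in all 13 alternatives. The brightest Cd44 probe gave -0.15 (SE 0.11, adjusted p = 0.351) for the same difference. shActb_2 lay on a slide of its own, so slide and hairpin cannot be told apart. No group had enough arrays to look for a single outlying array.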

How the results depend on the processing

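The number of changed members depended on the rule and on single arrays, since several values lay near 2-fold. At an adjusted p under 0.05 alone it was 1 for Srf against EGFP, 2 for Mkl1 against EGFP, 2 for shActb_1, 3 for shActb_2 and 3 for Srf against Mkl1. Mkl1 against EGFP gave 0 in place of 1 under quantile normalization, with only the arrays compared, and when all probes of a member had to be called. shActb_1 gave 1 in place of 0 under quantile normalization. With 1 array left out the count ran from 0 to 1 for Mkl1 against EGFP, for shActb_1, for shActb_2 and between the hairpins, and from 0 to 2 for Srf against Mkl1. For Mkl1 the call was lost without EGFP replicate 1 or Mkl1 replicate 2 (Cd44 at 0.84 and 0.91), and for shActb_1 Aldh1l1 was called without shEGFP replicate 2 or shActb_1 replicate 1 (-1.004 and -1.07). For shActb_2 Aqp4 was called without replicate 1 (-1.05), and S100b, above background on only 1 array of each of shEGFP and shActb_2, was called without shActb_2 replicate 2 against shEGFP and shActb_1. It entered there only through the 1 high shActb_2 array, and both shActb_1 arrays and shEGFP replicate 2 were not well above background, so no size is given. It was also tested without shEGFP replicate 2 (adjusted p = 0.271 and 0.817 for the hairpins) and without a dim filter (0.144 to 0.995), and was not called. Srf against Mkl1 lost Aldh1l1 without Mkl1 replicate 2 (0.96) and gained Cd44 without Mkl1 replicate 1 (-1.05) or Srf replicate 2 (-1.03). The lone array of a group was then assumed to vary like the other groups. Of 762 values of single member probes under the alternatives, 670 kept their direction and their side of the threshold, 30 lost it, 24 gained it and 38 turned sign, none of which had passed the test. Aldh1l1 in Srf against EGFP, in both hairpins and in Srf against Mkl1 passed under every alternative run. Under quantile normalization the sign turned for Aqp4 (A_55_P2031939) 0.028 in Srf against EGFP, Aqp4 (A_55_P2031939) 0.047 in Mkl1 against EGFP, Sox10 0.11 in shActb_2 against shEGFP, Cd44 (A_55_P2064043) -0.11 in shActb_2 against shEGFP, Sox10 -0.14 in Srf against Mkl1, Aqp4 (A_55_P2031939) -0.019 in Srf against Mkl1, Cspg4 0.067 in shActb_2 against shActb_1. Under the normexp background correction the sign turned for Cd44 (A_55_P2166486) -0.025 in Srf against EGFP, Sox10 -0.011 in Mkl1 against EGFP, Sox10 0.011 in shActb_2 against shEGFP, Cd44 (A_55_P2064043) -0.0002 in shActb_2 against shEGFP, Aqp4 (A_55_P2031939) -0.018 in Srf against Mkl1. With 1 array left out at a time the sign turned in Srf against EGFP Sox10 -0.059 to 0.24, Cspg4 -0.033 to 0.44, Aqp4 (A_55_P2000369) -0.79 to 0.036, Aqp4 (A_55_P2031939) -0.28 to 0.021, Cd44 (A_55_P2064043) -0.12 to 0.20, Cd44 (A_55_P2166486) -0.077 to 0.14, in Mkl1 against EGFP Sox10 -0.041 to 0.21, Cspg4 -0.24 to 0.24, Aqp4 (A_55_P2031939) -0.49 to 0.11, in shActb_1 against shEGFP Sox10 -0.27 to 0.49, Cd44 (A_55_P2166488) -0.088 to 0.35, in shActb_2 against shEGFP Cd44 (A_55_P2166488) -0.070 to 0.37, in Srf against Mkl1 Sox10 -0.14 to 0.16, Aqp4 (A_55_P2000369) -0.43 to 0.39, Aqp4 (A_55_P2031939) -0.24 to 0.36, in shActb_2 against shActb_1 Sox10 -0.54 to 0.21, Cspg4 -0.079 to 0.021, Cd44 (A_55_P2166488) -0.14 to 0.17, Cd44 (A_55_P2166486) -0.86 to 0.44. Of 94 changes of other listed genes, the 1216 values under the alternatives passed the adjusted p in the same direction in 1163 (1094 of them over 2-fold, 69 under it) and lost it in 53, and none turned sign. With some 1 array left out 27 of the 94 lost the adjusted p or fell under 2-fold, among them Has2 (-0.82), Nes (0.90), Sox9 (0.94), Clu (-0.97) and Grip1 (0.72) in Mkl1, Sox2 (-0.87), Ugt8a (0.96) and Cd68 (0.97) on the arrays labelled Srf, Sox2 (-0.88), Id2 (-0.97) and Sparcl1 (-0.95) in shActb_1, and Agt (-0.84), Id2 (0.87), Sox9 (0.95) and Acsbg1 (0.97) in shActb_2. Over all probes, normexp lowered the calls from 1970 to 843 for Srf against EGFP, 996 to 367 for Mkl1 against EGFP, 583 to 250 for shActb_1, 2283 to 677 for shActb_2, 1787 to 903 for Srf against Mkl1 and 1781 to 418 between the hairpins. Mkl1 against EGFP called 126 with only the compared arrays and 2213 without EGFP replicate 2, shActb_2 called 3448 without its replicate 1, and with probes above background on all 12 arrays shActb_2 called 1342 and the hairpins 993. The replicate numbers were shared between groups but pair no cultures (correlation of replicate 1 minus 2 between compared groups 0.003 to 0.203). With the replicate block the counts of changed members stayed at 0 for Srf against EGFP, 1 for Mkl1 against EGFP and 0 for each hairpin, and the block changed none of the counts. Slide as a fixed block leaves the comparisons within a slide unchanged by construction, and as a random block it left the counts of shActb_2 at 0. The causes of these differences were not tested. Signal over background limited the dim members, since Olig1, Olig2 and S100b were above background on too few arrays to be tested in the main setting.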

Other observations

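Neuronal genes, markers of the third fate open to these progenitors, were called in all 4 comparisons with a control. Stmn2, a microtubule regulator of growing axons, fell on the arrays labelled Srf, with a log2 difference of -3.88 (SE 0.15, adjusted p = 9.26e-06), and also in Mkl1 (-1.46), shActb_1 (-1.41) and shActb_2 (-1.29). Map2, a dendritic microtubule protein, fell in Mkl1 (-1.49) and with the hairpins (-1.27 and -1.14). Syt1, a calcium sensor of synaptic vesicles, fell in Mkl1 (-1.02, adjusted p = 0.0024). With 1 array left out the Syt1 difference in Mkl1 ran from -1.20 to -0.84, so that it could fall under 2-fold. Tubb3, the neuronal β-tubulin, went the other way on the arrays labelled Srf, where it rose by 1.53 (SE 0.11, adjusted p = 9.26e-05). Of 7 or 8 tested neuron markers, 1 rose and 1 fell for Srf, 3 fell for Mkl1, and 2 fell for each hairpin, beside 5.54%, 2.78%, 1.61% and 6.31% of all probes. At the adjusted p alone 2 were higher and 3 lower for Srf, and 1 and 3 for Mkl1. With the hairpins the counts were 1 and 2 in shActb_1 and 0 and 3 in shActb_2. Of all probes 25.5%, 20.8%, 9.41% and 40.3% passed. Srf against Mkl1 gave 1.82 for Tubb3, 1.21 for Syt1, -2.42 for Stmn2 and -1.07 for Gap43, a growth cone protein.

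Among 6 embryonic stem cell markers Esrrb, an orphan nuclear receptor, rose on the arrays labelled Srf by 2.53 (SE 0.12, adjusted p = 1.63e-05). It was the only one changed against a control, beside 5.54%, 2.78%, 1.61% and 6.31% of all probes for Srf, Mkl1, shActb_1 and shActb_2. At the adjusted p alone 2 were higher and 0 lower for Srf, 0 and 1 for Mkl1, and 1 and 1 for each hairpin. Of all probes 25.5%, 20.8%, 9.41% and 40.3% passed. Lum (lumican), a fibroblast proteoglycan, was above background on 3 of 12 arrays and was at least 17.3-fold higher on the arrays labelled Srf than in EGFP (adjusted p = 7.58e-05), with measured means of -1.47 and -5.84, having entered the comparison through those arrays. Srf against Mkl1 gave 2.55 for Esrrb, 1.02 for Nanog, a pluripotency factor, and 1.51 for Prom1, a progenitor surface protein. With 1 array left out the Nanog difference ran from 0.99 to 1.06, so that it could fall under 2-fold.

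Of 6 tested microglia markers 2 rose and 2 fell on the arrays labelled Srf, 1 fell in Mkl1, 0 changed in shActb_1 and 1 fell in shActb_2, beside 5.54%, 2.78%, 1.61% and 6.31% of all probes. Csf1r and Cd68, receptors of the macrophage lineage, rose on the arrays labelled Srf by 1.44 and 1.12, although a dimmer Csf1r probe gave 0.046 (adjusted p = 0.696). Tmem119, a microglial membrane protein that bone cells also express, fell there (-2.09). Aif1, a calcium-binding protein of microglia, fell on the arrays labelled Srf (-1.29, adjusted p = 0.037) and in Mkl1 (-1.51, adjusted p = 0.0253), calls lost in 2 and 3 of the 4 fits with 1 array left out (adjusted p up to 0.203 and 0.137). Ptprc, the leukocyte surface phosphatase CD45, fell in shActb_2 (-1.02, adjusted p = 0.0325), a call lost in 3 of 4 such fits (adjusted p up to 0.175).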
